A study of Mus musculus with 15 samples.

Results

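*Angptl4*, which encodes a secreted inhibitor of lipoprotein lipase, was described together with 5 genes that are textbook targets of the peroxisome proliferator-activated receptors (PPARs), *Pdk4*, *Plin2*, *Cpt1a*, *Acadvl* and *Acaa2*, and with the genes of the receptors themselves, *Ppara*, *Ppard* and *Pparg*. These 9 genes, of 35142 genes with transcripts in the data, were selected by symbol. *Angptl4* was picked from its rise with IL-12 in these same cultures, so its differences between the groups are given as a description with no test. The other 8 genes were chosen to ask whether that rise came with other PPAR targets.

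The samples were 15 bulk RNA-seq libraries of cerebellar cells that were dissociated from wild-type C57BL/6 pups of postnatal day 0 to 4 and kept in culture. At day 14 in vitro, 5 cultures received 30 ng/ml and 5 received 100 ng/ml recombinant murine IL-12p70 (the bioactive form of interleukin 12) for 18 h, and 5 cultures stayed unstimulated. Stranded libraries were made from poly(A) RNA. All groups share strain, genotype and medium.

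PPARs are nuclear receptors that fatty acids activate and that bind DNA as partners of the retinoid X receptors, at direct repeats of a short half-site spaced by a single base. PPAR-alpha is best known for switching on fatty acid oxidation, PPAR-gamma for lipid storage and adipocyte identity, and PPAR-delta is present in most tissues including the brain. *Angptl4* is a strong target of all of them, and it also responds to glucocorticoids and to low oxygen.

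Between 25746096 and 38435850 reads were assigned per culture. The cultures are labelled as neurons, but the median marker of neurons stood at 5.53 TPM (transcript abundance per length, scaled to a fixed total per culture) in unstimulated cultures, against 137 TPM for markers of microglia and 229 TPM for those of astrocytes, so a change in a bulk level here can be a change in the number of cells of a type or in the RNA per cell, and these cannot be told apart. Replicate 2 of the 100 ng/ml cultures stood apart from its group: the SD of its log2 CPM (reads per gene, scaled to a fixed library total) around the mean of the other 4 cultures was 0.319 over the tested genes, against 0.208 to 0.258 for the remaining 14 cultures. Calls among the genes described, the lists and the markers are given also without this culture where they differ.

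The sequence below shows where the transcripts that carried *Angptl4* differ. *Angptl4* (ENSMUSG00000002289) lies on the minus strand of chromosome 17, from 33992724 to 34000804 (GRCm39), and no other annotated gene overlaps it. On average 83.5% of its TPM was assigned to *Angptl4-202*, a transcript annotated as a target of nonsense-mediated decay, and 9.59% to *Angptl4-201*, which encodes the full protein. Both have 7 exons and share every splice site except 1: exon 3 of *Angptl4-202* starts 4 bases further into the exon. Each line runs from the last 24 bases of exon 2 (chr17:33999757-33999780) into exon 3 (chr17:33999594-33999621 for *Angptl4-201*, chr17:33999594-33999617 for *Angptl4-202*), as the transcript reads from 5′ to 3′. Capitals mark the 4 bases held only by *Angptl4-201* and the stop codon that the shifted frame of *Angptl4-202* meets.
Angptl4-201: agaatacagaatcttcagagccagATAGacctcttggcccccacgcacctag
Angptl4-202: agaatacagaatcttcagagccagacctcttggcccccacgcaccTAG
The open reading frame of *Angptl4-201* runs for 410 codons before its stop, and that of *Angptl4-202* ends after 154 codons. *Angptl4-201* also extends 287 bases further at the 5′ end and 1158 bases further at the 3′ end. As the remaining exon sequence is shared, the split between the transcripts rests on these ends and on the few reads over the exon 3 junction.

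*Angptl4* was higher with IL-12 in every culture. The unstimulated cultures had 2.06, 2.01, 1.83, 2.12 and 1.38 CPM, a mean of 1.88 ± 0.301 CPM (SD, n = 5). The cultures with 30 ng/ml had 4.13, 3.51, 3.37, 4.05 and 4.81 CPM, with a mean of 3.97 ± 0.574 CPM (SD, n = 5). The cultures with 100 ng/ml had 6.20, 4.26, 5.99, 4.04 and 4.40 CPM, with a mean of 4.98 ± 1.03 CPM (SD, n = 5). No stimulated culture overlapped an unstimulated one at either concentration, whereas the groups with 30 and 100 ng/ml overlapped, with replicates 1 and 3 at 100 ng/ml above all cultures with 30 ng/ml. The fitted log2 fold change was 1.40 (standard error 0.15, 95% confidence interval 1.08 to 1.73) at 100 ng/ml and 1.07 (standard error 0.16, interval 0.74 to 1.40) at 30 ng/ml. These intervals do not allow for the choice of *Angptl4* by its rise and are no test of it. Ordered by fold change among the 15360 genes tested, it was at rank 18 at 100 ng/ml and at rank 22 at 30 ng/ml. These values rest on few reads, 36 to 79 per unstimulated culture, 90 to 136 with 30 ng/ml and 109 to 198 with 100 ng/ml.

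*Angptl4* also stayed a low gene: its mean of 1.74 TPM in unstimulated cultures was exceeded by 13830 genes, and its mean of 4.40 TPM at 100 ng/ml by 11982 genes. Both main transcripts were higher with IL-12. *Angptl4-202* ranged from 1.03 to 1.58 TPM in unstimulated cultures, from 2.64 to 3.78 TPM with 30 ng/ml and from 3.27 to 4.56 TPM with 100 ng/ml. The coding *Angptl4-201* ranged from 0.0738 to 0.255 TPM, from 0.214 to 0.494 TPM and from 0.273 to 0.594 TPM, so that its unstimulated and 30 ng/ml cultures overlapped and those with 100 ng/ml lay above all unstimulated cultures. The share of *Angptl4-201* was 9.22% ± 3.49 (SD, n = 5) without IL-12, 8.96% ± 2.73 (SD, n = 5) with 30 ng/ml and 10.1% ± 1.41 (SD, n = 5) with 100 ng/ml, with overlapping ranges. Another short transcript, *Angptl4-204*, was above 0 in 8 of 15 cultures, and *Angptl4-203* was listed at 0 in all of them.

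**Figure D1:**
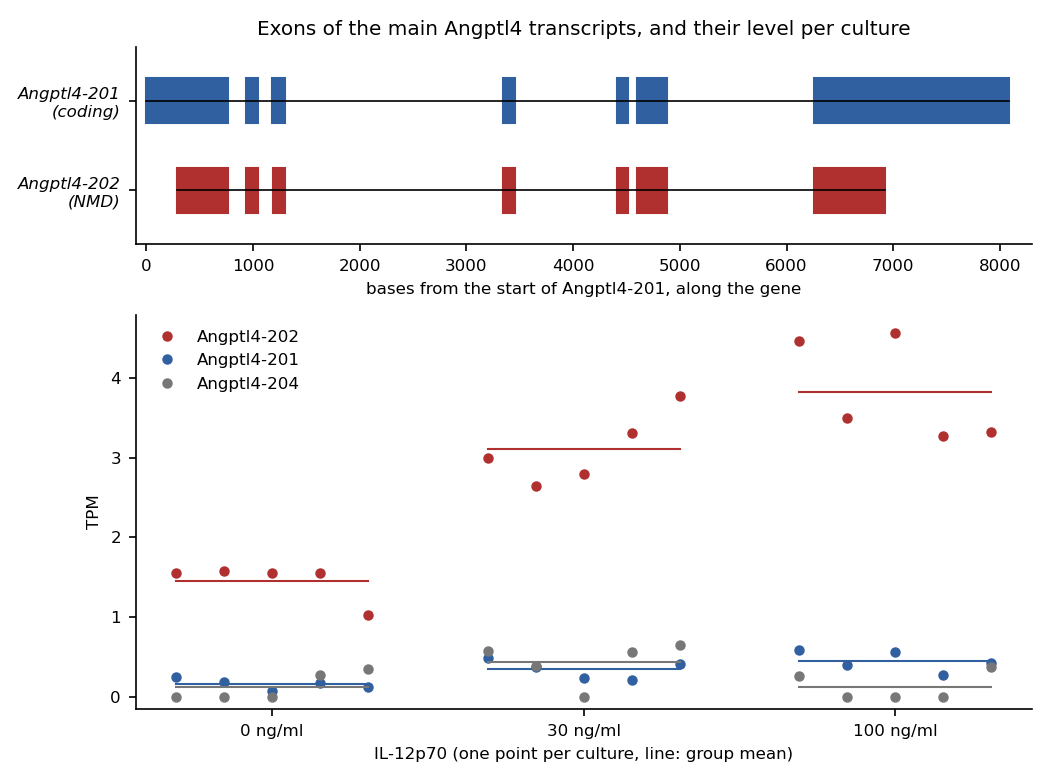
Top, exons of *Angptl4-201* and *Angptl4-202* (NMD, annotated as a target of nonsense-mediated decay) in bases from the start of *Angptl4-201*. Bottom, TPM of 3 *Angptl4* transcripts in each culture (points, 5 per group) with group means (lines): *Angptl4-202* lies at 1.03 to 1.58 TPM without IL-12 and at 3.27 to 4.56 TPM with 100 ng/ml, and the other transcripts lie below it in every culture.

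The other PPAR targets did not follow *Angptl4* in size. Of the 7 other genes that passed the filter on low counts (at least 1 CPM in at least 2 cultures), only *Acaa2* at 100 ng/ml passed an edgeR false discovery rate (FDR) of 0.05, where 9.77% of all tested genes passed, 5.83% higher and 3.93% lower. At 30 ng/ml none of the 7 passed in edgeR or in DESeq2, and 2 did at an unadjusted p under 0.05 in edgeR, where 7.87% of all genes passed the FDR, 4.16% higher and 3.71% lower. For 100 ng/ml 4 of the 7 were under an unadjusted p of 0.05, *Acaa2*, *Cpt1a*, *Acadvl* and *Ppara*, and DESeq2 called 1. Between 100 and 30 ng/ml edgeR and DESeq2 called none of the 7, 0 had an unadjusted p under 0.05 in either tool, and 0.579% of all genes were called.

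*Acaa2* and *Acadvl* encode the thiolase and the very long chain acyl-CoA dehydrogenase of mitochondrial beta-oxidation. *Acaa2* was at 31.8, 38.7, 36.6, 35.9 and 33.8 CPM without IL-12, at 40.3, 38.5, 35.9, 41.0 and 44.1 CPM with 30 ng/ml and at 44.0, 36.1, 41.9, 41.8 and 40.5 CPM with 100 ng/ml. At 100 ng/ml 4 of 5 cultures lay above every unstimulated culture, and replicate 2 lay among them. *Acaa2* rose at 100 ng/ml with a log2 fold change of 0.21 (standard error 0.06, 95% confidence interval 0.07 to 0.35, FDR = 0.0476), and at 30 ng/ml the value was 0.18 (interval 0.04 to 0.31, FDR = 0.101). The call at 100 ng/ml was lost when any of 11 of the 15 cultures was left out (FDR = 0.0511 to 0.128), and without replicate 2 of the 100 ng/ml cultures the FDR was 0.0102.

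*Acadvl* was at 77.4, 85.9, 86.3, 83.0 and 83.2 CPM without IL-12 and at 91.5, 83.3, 86.1, 88.2 and 89.0 CPM with 30 ng/ml. Its cultures with 100 ng/ml had 96.3, 81.3, 91.8, 87.5 and 95.6 CPM, all but replicate 2 above the highest unstimulated culture at 86.3 CPM. Its log2 fold change at the higher concentration came to 0.12 (interval 0.02 to 0.22, FDR = 0.116), and without replicate 2 of the 100 ng/ml cultures it was 0.16 (FDR = 0.0161), which passed.

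*Cpt1a* encodes the carnitine palmitoyltransferase that admits long-chain fatty acids to mitochondria. It was at 101, 104, 104, 104 and 109 CPM without IL-12, at 112, 117, 105, 111 and 119 CPM with 30 ng/ml and at 107, 117, 124, 107 and 116 CPM with 100 ng/ml. The higher cultures of both stimulated groups were above all unstimulated ones, and the lower ones overlapped them. *Cpt1a*, *Acaa2*, *Acadvl*, *Ppara*, *Ppard* and *Pparg* overlap annotated genes on the opposite strand, *Ppard* also overlaps a non-coding gene on its own strand, and whether the estimates used strand is not given in the sources used here. Neither log2 fold change passed, with 0.13 (interval 0.03 to 0.23, FDR = 0.0844) at 100 ng/ml and 0.12 (interval 0.02 to 0.21, FDR = 0.139) at 30 ng/ml.

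*Pdk4* encodes a kinase that shuts pyruvate dehydrogenase when fatty acids are burnt, and with *Angptl4* it is among the genes most used as readouts of PPAR activity. Unstimulated cultures had 12.4, 13.6, 12.8, 11.6 and 12.8 CPM. With 30 ng/ml the values were 16.0, 13.0, 12.9, 12.5 and 11.5 CPM, and with 100 ng/ml they were 12.1, 13.3, 11.9, 13.1 and 12.3 CPM. All groups overlapped, with replicate 1 at 30 ng/ml the highest of the 15. The log2 fold change was -0.01 (interval -0.18 to 0.15, FDR = 0.931) at 100 ng/ml, an interval that ends at 1.11-fold, and 0.06 (interval -0.10 to 0.22, FDR = 0.690) at 30 ng/ml.

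*Plin2*, which coats lipid droplets, was the most abundant of the 9 genes per length, at 232 ± 18.8 TPM (SD, n = 5) without IL-12. It was at 166, 174, 197, 204 and 186 CPM in unstimulated cultures, at 156, 166, 168, 187 and 176 CPM with 30 ng/ml and at 180, 169, 199, 196 and 184 CPM with 100 ng/ml. The groups overlapped throughout. Its log2 fold change was 0.003 (interval -0.13 to 0.13, FDR = 0.986) at 100 ng/ml and -0.12 (interval -0.25 to 0.01, FDR = 0.281) at 30 ng/ml.

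**Figure D2:**
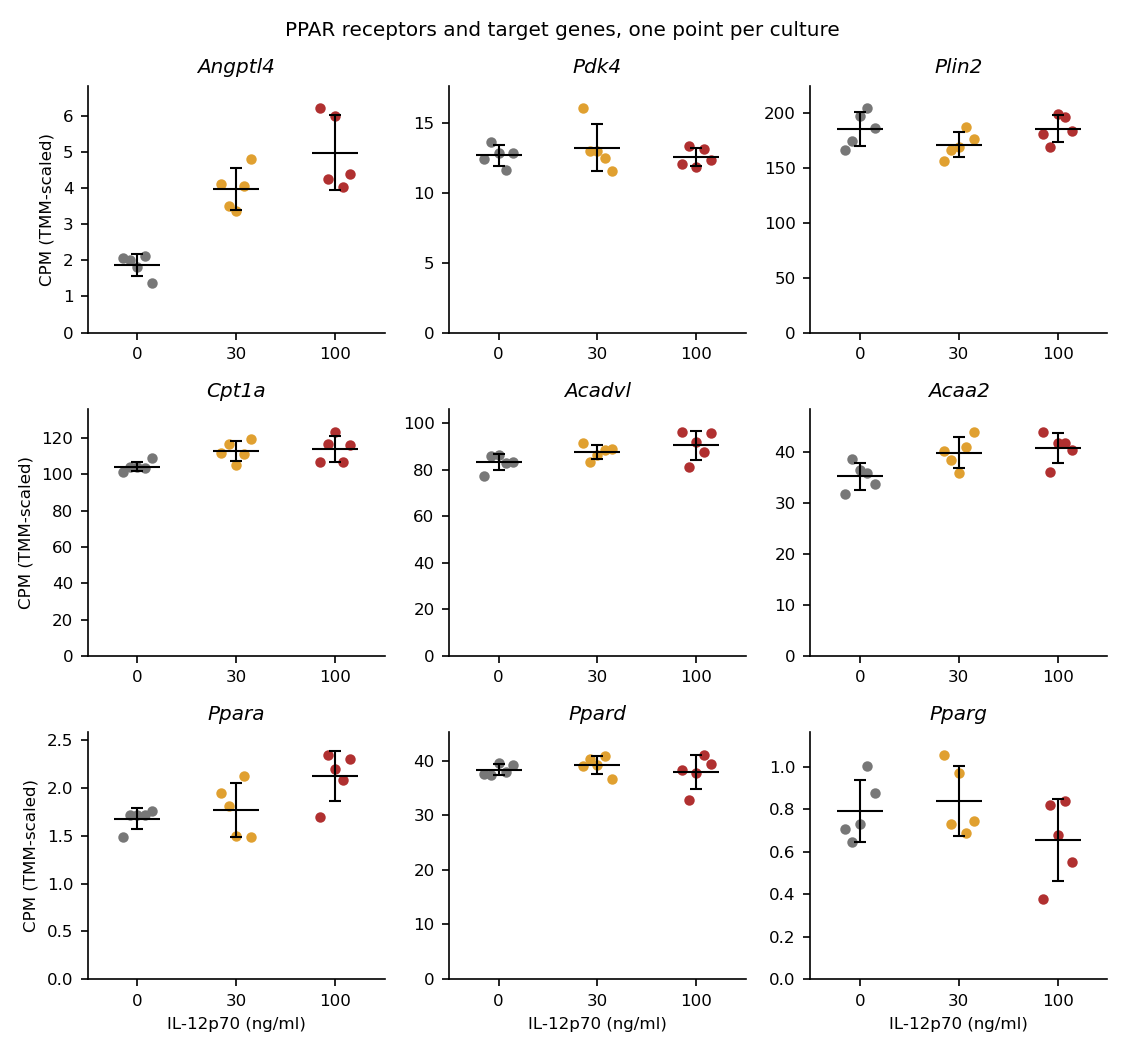
CPM of the 9 genes in each culture (points, 5 per group) against the IL-12p70 concentration, with mean and SD (bars) and each axis starting at 0. *Angptl4* separates both stimulated groups from the unstimulated one, and the groups overlap in every other panel.

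Among the receptors, *Ppard* was the most abundant per length, at 23.1 ± 1.11 TPM (SD, n = 5) in unstimulated cultures, ahead of *Ppara* at 1.24 ± 0.287 TPM and *Pparg* at 1.09 ± 0.382 TPM, whose ranges overlapped each other. In the same cultures the targets ran from *Plin2* over *Acadvl* at 66.5 ± 2.37 TPM, then *Cpt1a* at 43.1 ± 2.21 TPM and *Acaa2* at 41.3 ± 2.51 TPM, to *Pdk4* at 6.19 ± 0.973 TPM and *Angptl4* at 1.74 ± 0.190 TPM. Among these only the ranges of *Cpt1a* and *Acaa2* overlapped. *Ppard* ranged from 37.3 to 39.6 CPM without IL-12, from 36.6 to 40.9 CPM with 30 ng/ml and from 32.8 to 41.0 CPM with 100 ng/ml, and its log2 fold changes were 0.03 (FDR = 0.758) and -0.02 (interval -0.13 to 0.09, FDR = 0.890).

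*Ppara* was at 1.49, 1.72, 1.72, 1.72 and 1.76 CPM without IL-12, at 1.95, 1.81, 1.50, 2.13 and 1.49 CPM with 30 ng/ml and at 1.69, 2.35, 2.20, 2.09 and 2.30 CPM with 100 ng/ml. At 100 ng/ml 4 of 5 cultures lay above every unstimulated culture. The log2 fold change there was 0.34 (interval 0.06 to 0.62, FDR = 0.116), which did not pass, and with the effective length of the transcripts as an offset it was -0.06 (FDR = 0.887). In TPM, which divides by that length, the means were 1.24, 1.18 and 1.16 in the same order of groups. Its main transcript *Ppara-202* held 42.3% ± 18.9 (SD, n = 5) of its TPM without IL-12 and 63.9% ± 18.9 (SD, n = 5) at 100 ng/ml, a difference with an exact two-sided permutation p of 0.119 and an adjusted p of 0.698 over 8 such tests. *Pparg*, with 12 to 32 reads per culture, did not pass the filter and was not tested, and averaged 0.793, 0.838 and 0.655 CPM without IL-12, with 30 and with 100 ng/ml. The most specific products of adipocytes, *Adipoq* and *Lep*, were at or near 0 in every group.

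**Figure D3:**
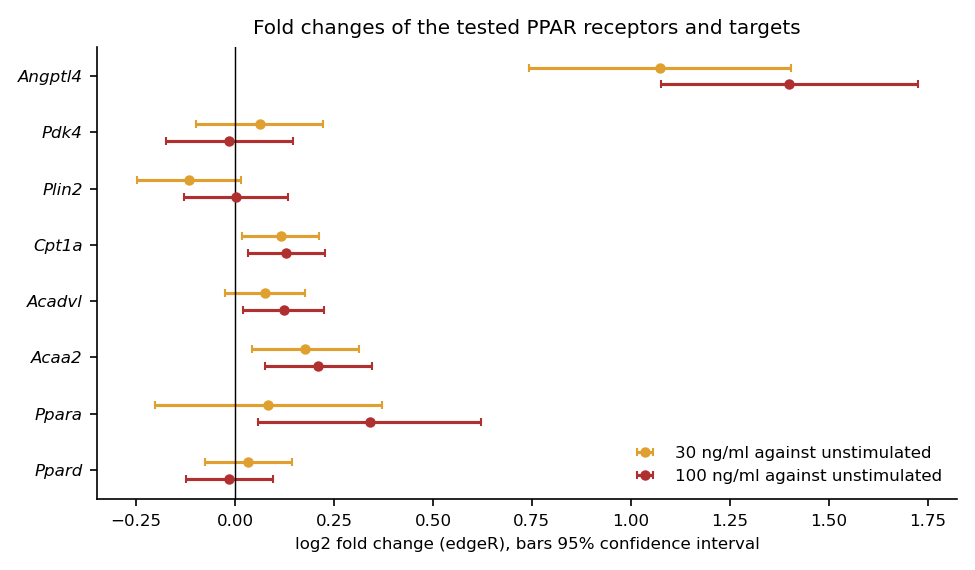
Log2 fold changes of the 8 tested genes (points) with 95% confidence intervals (bars) at 30 ng/ml and 100 ng/ml against unstimulated cultures. *Angptl4* lies at 1.07 and 1.40, and every other gene lies between -0.12 and 0.34. The intervals of *Angptl4* do not allow for its choice by its rise.

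A wider list of 92 genes of the PPAR pathway was examined in the same fits. It marked 43 of them, besides the genes above, as PPAR-responsive. Of those 43 genes 34 were tested. At 100 ng/ml 2 rose, *Plin4* and *Acaa1a*, 1 fell, *Acsl1*, and 31 did not pass, which is 8.82% called against 9.77% of all genes. Their median log2 fold change was 0.06, against -0.004 over all genes. At 30 ng/ml 1 rose, *Slc22a5*, 3 fell, *Acsl1*, *Abcd2* and *Lpl*, and 30 did not pass, which is 11.8% called against 7.87% of all genes. The median there was 0.06, against 0.0001 over all genes. Of the 34 genes 22 were positive at 30 ng/ml and 26 at 100 ng/ml, against 7690 and 7473 of all 15360 genes. Without replicate 2 of the 100 ng/ml cultures *Plin4* no longer passed at 100 ng/ml, and *Acaa1a* and *Acsl1* did.

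The genes called were spread over uptake, oxidation and storage, in both directions. *Acsl1*, which activates long-chain fatty acids, fell from 34.9 ± 2.83 CPM (SD, n = 5) to 28.0 ± 1.98 CPM with 30 ng/ml and 29.8 ± 2.29 CPM with 100 ng/ml (log2 fold changes of -0.32, FDR = 0.00763, and -0.23, FDR = 0.0364). *Lpl*, the lipase that the *Angptl4* product inhibits, had 364 ± 41.2 CPM without IL-12, fell to 301 ± 16.3 CPM with 30 ng/ml (-0.27, FDR = 0.0342), and had 339 ± 35.3 CPM with 100 ng/ml (-0.10, FDR = 0.430). *Abcd2*, a peroxisomal transporter of fatty acids, fell by 0.33 on the log2 scale with 30 ng/ml (FDR = 0.0319), and *Slc22a5*, the carnitine carrier of the cell membrane, rose by 0.16 (FDR = 0.0261). *Plin4*, another lipid droplet protein, went from 1.12 ± 0.231 to 1.81 ± 0.301 CPM at 100 ng/ml (0.67, FDR = 0.0384) and *Acaa1a*, the peroxisomal thiolase, from 82.5 ± 5.76 to 94.9 ± 7.40 CPM (0.20, FDR = 0.0431). Leaving out 1 culture at a time ended the calls of all of these except *Acsl1* at 30 ng/ml in 5 to 8 of the 15 cases. The offset for effective length ended the calls at 30 ng/ml of *Acsl1* (FDR = 0.0903), *Lpl* (FDR = 0.0704) and *Slc22a5* (FDR = 0.166), and that of *Acaa1a* at 100 ng/ml (FDR = 0.0727).

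The list used here set which genes were marked as PPAR-responsive, and genes it did not mark are outside the 34 counted above. Over all 71 tested pathway genes besides the 9 described, 6 rose and 2 fell at 100 ng/ml (11.3% called against 9.77% of all genes). At 30 ng/ml 2 rose and 4 fell (8.45% against 7.87%). Among the unmarked genes, *Eci2*, an enoyl-CoA isomerase, and *Pdk1*, another kinase of pyruvate dehydrogenase, were called at both concentrations. Their calls held in every fit that left out 1 culture. *Eci2* went from 90.5 ± 3.04 CPM (SD, n = 5) to 107 ± 2.66 and 108 ± 2.93 CPM (0.24, FDR = 0.000791, and 0.26, FDR = 0.000236). *Pdk1* went from 70.5 ± 8.78 CPM to 42.5 ± 7.40 and 39.9 ± 2.16 CPM (-0.73, FDR = 0.000469, and -0.82, FDR = 6.94e-05), with no overlap with the unstimulated cultures. At 100 ng/ml *Fabp7*, the fatty acid binding protein of glial cells (0.33, FDR = 0.0161), *Acsl5*, another activator of fatty acids (0.24, FDR = 0.0314, and 0.364 with the offset for effective length), and *Rxrg*, a partner receptor of PPARs (0.61, FDR = 0.0388, and 0.0556 with that offset), also rose. The calls of *Acsl5* and *Rxrg* were each lost in 6 of the 15 fits that left out 1 culture (FDR up to 0.0767 and 0.108), and that of *Fabp7* in none of them. The difference between the concentrations was called for none of the 71 tested pathway genes in edgeR, with 5 at an unadjusted p under 0.05, and for *Acsl5* in DESeq2. Without replicate 2 of the 100 ng/ml cultures edgeR called *Slc27a1* higher at 100 than at 30 ng/ml. That fit also called *Lmf1* higher at 100 ng/ml than without IL-12. In that comparison it called 2932 genes, against 1500 with all 15 cultures.

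By role, 11 of 13 tested genes of mitochondrial beta-oxidation besides *Acadvl* and *Acaa2* had a positive value at 100 ng/ml, with a median of 0.06 and 1 called (*Eci2*), and without replicate 2 of that group 2 were called (*Eci2* and *Etfb*). All 9 tested lipid droplet genes besides *Plin2* were positive, with a median of 0.10 and 1 called (*Plin4*). Without replicate 2 their median was 0.16, *Plin3* and *Pnpla2* were called and *Plin4* was not. Of the 7 genes of the carnitine shuttle besides *Cpt1a* 6 were positive at 100 ng/ml, and none was called in edgeR or DESeq2 or had an unadjusted p under 0.05, whereas without replicate 2 edgeR called *Crat* and 2 had an unadjusted p under 0.05. Of 13 retinoid X receptors and coregulators 10 were negative at 100 ng/ml and 1 was called, *Rxrg*, and without replicate 2 *Ncoa2* was called lower as well. In further roles at 100 ng/ml, 7 of 12 genes of fatty acid uptake and activation were positive. So were 6 of 9 of peroxisomal and omega oxidation and 4 of 6 of ketogenesis and fuel choice besides *Pdk4*. At 30 ng/ml 8 of the 13 beta-oxidation, 6 of the 9 lipid droplet and 6 of the 7 carnitine shuttle genes were positive. Of the retinoid X receptors and coregulators 4 of 13 were. Over all genes 7473 of 15360 were positive at 100 ng/ml and 7690 at 30 ng/ml. At 100 ng/ml 5.83% of all genes were called higher and 3.93% lower. These shares are of the fit of all 15 cultures, which called 1500 genes at 100 ng/ml, and the fit without replicate 2 called 2932.

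*Angptl4* is also listed among genes that glucocorticoids and low oxygen induce. Both of these lists were chosen with earlier results of these data known, so their called shares are a description. Of 15 tested glucocorticoid-responsive genes besides *Angptl4* and *Pdk4* 7 rose and 1 fell at 100 ng/ml (53.3% called against 9.77% of all genes, median 0.32), and 2 rose and 1 fell at 30 ng/ml (20% called against 7.87% of all genes, median 0.04). *Klf9*, a transcription factor that glucocorticoids induce, rose from 82.6 ± 5.08 CPM (SD, n = 5) to 97.9 ± 11.5 CPM (0.25, FDR = 0.0414) and 115 ± 8.58 CPM (0.48, FDR = 0.000488). Without replicate 2 of the 100 ng/ml cultures *Per1* was called higher too at 100 ng/ml. That fit called 2932 genes there, against 1500 with all 15 cultures. In the same fit *Lcn2* and *Mt1* were called higher at 30 ng/ml, where 4 rose and 1 fell. *Fkbp5* and *Tsc22d3* did not pass at 100 ng/ml, with 0.02 (FDR = 0.892) and 0.14 (FDR = 0.0934). *Lcn2* and *Nfkbia* rose there (1.05, FDR = 0.000451, and 0.41, FDR = 8.35e-05), as did *Mt1*, *Mt2*, *Sult1a1* and *Cebpd*, and *Dusp1* fell (-0.35, FDR = 0.00657). At 30 ng/ml *Cebpd* rose as well (0.30, FDR = 0.0433) and *Sgk1* fell (-0.31, FDR = 0.0159). The *Klf9* call at 30 ng/ml was lost in 8 of the 15 fits that left out 1 culture (FDR up to 0.109). The *Cebpd* call was lost in 9 of them at 30 ng/ml (FDR up to 0.107) and in 6 at 100 ng/ml (FDR up to 0.0733). Those of *Klf9* and *Lcn2* at 100 ng/ml held in all 15. *Lcn2* and *Nfkbia* are also known to respond to NF-kB, and *Mt1* and *Mt2* to metals. What moved these genes, and any part in the level of *Angptl4*, was not tested.

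Of 17 tested hypoxia-inducible genes besides *Angptl4*, 11 fell at 100 ng/ml (64.7% called, against 3.93% of all genes called lower, median -0.42) and 13 at 30 ng/ml (76.5% called, against 3.71% of all genes called lower, median -0.36). None rose, at either concentration, in edgeR, at an unadjusted p under 0.05 or in DESeq2. *Bnip3* fell from 81.7 ± 13.2 CPM to 49.8 ± 8.55 and 44.2 ± 2.07 CPM, and *P4ha1* from 147 ± 8.63 CPM to 95.5 ± 10.5 and 92.5 ± 1.38 CPM. *Pdk1* is in this list and in the pathway list. *Hilpda*, which is both hypoxia-inducible and PPAR-responsive, was at 5.10, 5.03 and 5.29 CPM on average and did not pass (0.05, FDR = 0.781, at 100 ng/ml).

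**Figure D4:**
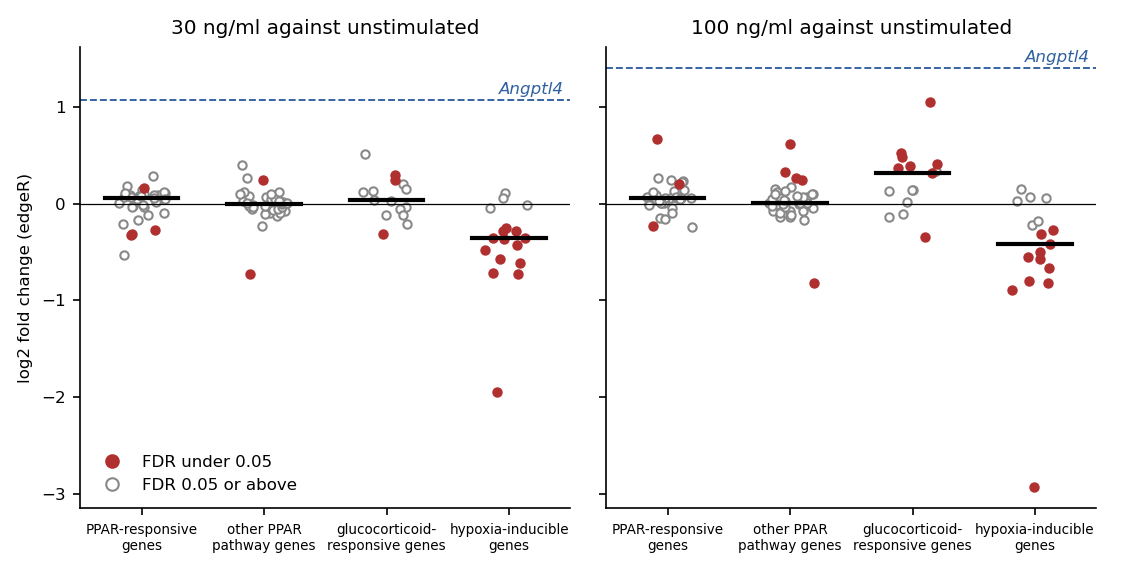
Log2 fold changes of 34 PPAR-responsive genes, 37 other genes of the PPAR pathway, 15 glucocorticoid-responsive and 17 hypoxia-inducible genes (points, filled where the FDR is under 0.05) with the median of each list (black line) and the value of *Angptl4* (dashed line), at 30 ng/ml (left) and 100 ng/ml (right). No gene of the 4 lists rises to the line of *Angptl4*, and the hypoxia-inducible genes lie mostly below 0.

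Markers of cell types were examined too. In the fit of all 15 cultures, 4.16% of all tested genes were called higher and 3.71% lower at 30 ng/ml. At 100 ng/ml these shares were 5.83% and 3.93%. The summed level of 11 microglial markers ranged from 5730 to 8022 TPM without IL-12, from 4536 to 5695 TPM with 30 ng/ml, where 6 of 11 fell, and from 5440 to 7236 TPM with 100 ng/ml, where none passed. *Lpl*, *Abcd2* and *Acsl1* fell at 30 ng/ml, and *Acsl1* fell at 100 ng/ml as well. For 10 astrocyte markers the range was 3838 to 4297 TPM, 4550 to 5307 TPM with 3 rises, and 4261 to 4716 TPM with 1 rise and 1 fall. The 11 markers of the oligodendrocyte lineage ranged from 6633 to 9843 TPM, from 6658 to 8180 TPM with 1 fall, and from 5926 to 7196 TPM with 3 falls. For 8 markers of endothelium, another known source of *Angptl4*, the sums were 30.5 to 40.0 TPM, 25.8 to 31.2 TPM and 25.5 to 31.6 TPM, with 1 fall at each concentration (*Flt1*), and *Cldn5* was at 0 in every culture. The 8 markers of fibroblasts and pericytes summed to 419 to 561 TPM, 444 to 532 TPM and 519 to 667 TPM, with 2 rises at 100 ng/ml. The 13 markers of neurons summed to 234 to 303 TPM, 281 to 330 TPM with 1 rise and 2 falls, and 270 to 282 TPM with 1 rise and 1 fall. *Map2*, *Tubb3* and *Zic1* held most of that sum, and of the 12 neuronal markers tested 9 were negative at each concentration, with a median log2 fold change of -0.49 at 30 and -0.34 at 100 ng/ml. The 7 markers of T and NK cells, the classical responders to IL-12, summed to 3.89 to 7.43 TPM, 3.36 to 4.50 TPM and 2.92 to 5.10 TPM, and *Ncr1* was at 0 in every culture. The 6 markers of adipocytes summed to 7.60 to 9.51 TPM, 8.51 to 12.0 TPM and 7.83 to 10.3 TPM. The fit without replicate 2 of the 100 ng/ml cultures called 2932 genes at 100 ng/ml, against 1500 with all 15 cultures. At 30 ng/ml fits with 1 culture left out called 673 to 1668 genes, against 1209. Without replicate 2 of the 100 ng/ml cultures, the calls there were 3 rises and 1 fall for astrocytes, 4 falls for the oligodendrocyte lineage, 3 rises for fibroblasts and pericytes, and 1 rise and 4 falls for neurons, and at 30 ng/ml they were 4 rises for astrocytes, 7 falls for microglia, and 1 rise and 4 falls for neurons. Their part in the levels of *Angptl4* and of the PPAR targets was not tested.

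Across the 15 cultures, the genes whose log2 CPM followed *Angptl4* most closely among 13873 protein-coding genes with a mean of at least 1 CPM were *Abhd11* (Pearson's r = 0.959), *Mbd1* (0.950), *Itga7* (0.942), *Cers4* (0.931) and *Esm1* (0.926). Each of them, like *Angptl4*, had higher means in both stimulated groups. These correlations describe cultures that fall into 3 treatment groups. After the group means were subtracted, the closest were *Mus81* (0.908), *Arhgef25* (0.862), *Dclk3* (0.857), *Scara3* (0.849) and *Snx32* (0.846), and the lists by Pearson's r and by the deviations had no gene in common. Of the PPAR genes, *Acaa2* was the closest to *Angptl4* with r = 0.785, at rank 381, followed by *Acadvl* (0.658), *Cpt1a* (0.654) and *Ppara* (0.407), while *Pdk4* (-0.094), *Ppard* (-0.096) and *Plin2* (-0.103) were near 0. With the group means subtracted, r was 0.566 for *Acaa2*, 0.378 for *Acadvl*, 0.094 for *Cpt1a* and 0.092 for *Plin2*. It was -0.221 for *Ppard*, -0.335 for *Ppara* and -0.359 for *Pdk4*.

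Promoter sequences of RefSeq (GRCm38.p6, 250 bases before to 50 after the start) were used for 7 of the 9 genes, with 9 promoters. None was used for *Angptl4* and *Acaa2*. They were searched on both strands for the direct repeat AGGTCANAGGTCA with at most 2 mismatches, which 3.86% of the 32851 promoters hold. Only that of *Plin2* held one. It is shown with the match in capitals, 5′ to 3′ on the strand of the gene, on which the repeat reads in reverse (chr4:86670257-86670299, minus strand).
Plin2: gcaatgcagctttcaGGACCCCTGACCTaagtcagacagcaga
The match begins 225 bases before the start of transcription. It is a match of letters and not a measured site, and *Plin2* was a gene that did not pass the test at either concentration.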

How the data were processed

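Total RNA of 15 cultures was sequenced as stranded mRNA libraries. The deposited files give, per transcript and culture, estimated counts (expected counts), TPM (scaled by length by the authors), transcript length and effective length. The submitters' processing notes and the study's methods name FastQC 0.10.0, STAR 2.7.8a, featureCounts, GRCm39 and GENCODE M26. These do not produce estimates per transcript, and the program that did, and its use of strand, are not given in the sources used here. The effective length exceeded the length for 15210 transcripts, so TPM and the length offset depend on that program.

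Of 121798 transcripts 120537 (99.0%) matched GENCODE M39 and were summed over 35142 genes, and unmatched transcripts held 0.677 to 0.712% of reads. The plan assumed counts per gene, so the sums were rounded to whole numbers. The 15360 genes that reached 1 CPM in 2 or more cultures entered edgeR 4.0.16 (limma 3.58.1, R 4.3.3), quasi-likelihood, TMM factors of 0.981 to 1.02 and a common biological coefficient of variation of 8.00%, with all 15 cultures in 1 fit and Benjamini-Hochberg adjustment over all genes (FDR threshold 0.05). DESeq2 1.42.0 was an alternative. Transcript shares were compared with exact two-sided permutation tests (smallest possible p 0.00794). The fit was tested on simulated data. Python 3.11.15, scipy 1.17.1, pandas 2.3.3 and numpy 2.4.6 were used. Promoters came from RefSeq (GRCm38.p6).

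The genes and lists were chosen with earlier results of these data known. Named were the 9 genes, pathway genes past the FDR at 30 or 100 ng/ml (at most 20, by smallest p), and the 5 genes most like *Angptl4* by each measure. Genes named from the glucocorticoid, hypoxia and marker lists were picked after their values were seen. Nothing says that replicates were separate preparations, so p-values measure the spread between these cultures, which may be technical. Alternatives were other normalizations, filters, fits of 2 groups, an offset for effective length, a replicate block and each culture left out.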

Additional observations from a re-analysis of the deposited data

Results flagged for a closer look

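*Ppara* in replicate 1 of the unstimulated cultures, at 1.49 CPM, lay apart from the other 4 cultures of its group, at 1.72 to 1.76 CPM. The gap to its nearest neighbour was 0.846 of the range of the group, above Dixon's limit of 0.71 for 5 samples. In all 27 groups, 9 genes in 3 treatments, were examined, and chance alone puts about 1 in 20 groups past this limit.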

How the results depend on the processing

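*Angptl4* kept its direction against unstimulated cultures under all 23 alternatives; with each culture left out its log2 fold change ranged from 1.31 to 1.47 at 100 ng/ml and from 0.99 to 1.13 at 30 ng/ml. No call turned to the opposite direction. Among values that did not pass, *Ppara* turned negative with the length offset (-0.06 at 100 and -0.09 at 30 ng/ml), and at 100 ng/ml *Plin2*, *Pdk4* and *Ppard*, all near 0, were positive in 17, 2 and 2 of the 23 alternatives. At 100 ng/ml against unstimulated, 1500 genes were called, 946 with only the 2 groups in the fit, 906 with the offset for effective length and 940 to 2932 with each culture left out, the highest without replicate 2 of the 100 ng/ml cultures. Of the 92 pathway genes, including the 9 described, 8 were called higher there (5 with only 2 groups, 3 to 13 with a culture left out) and 2 lower (1 without the filter, 1 with only 2 groups, 1 with the replicate block, 1 to 3 with a culture left out). At 30 ng/ml 1209 genes were called, 776 with the length offset and 673 to 1668 with a culture left out. There 3 pathway genes were called higher (2 to 4 with a culture left out) and 4 lower (2 with the length offset, 2 to 4 with a culture left out). *Angptl4*, picked for its rise, is among the 8 and among the 3 called higher, and its place there is no test of it. Between the concentrations 89 genes were called, 241 in DESeq2 and 38 to 147 with a culture left out, and 0 pathway genes were higher (1 in DESeq2, 0 to 1 with a culture left out). *Acaa2* at 100 ng/ml did not pass in 15 alternatives (FDR = 0.0511 to 0.128), and *Acadvl* passed in 1. The 5 genes most like *Angptl4* by Pearson's r and by Spearman's rho shared 0 genes. The cause of these shifts was not tested. Whether replicate numbers pair the cultures is not given in the sources used here. Deviations of same-numbered cultures correlated at -0.18 to 0.26, above 0.1 in 4 of 15 pairs, and 5 of 15 cultures correlated best with their own number. No chance level was set for these values, so they do not settle the question. With the replicate block *Acaa2* (FDR = 0.0901), *Acsl1* (0.0709), *Plin4* (0.0658) and *Acaa1a* (0.0750) at 100 ng/ml, and *Lpl* (0.0590) and *Slc22a5* (0.0565) at 30 ng/ml, no longer passed. The 12 to 79 reads behind *Ppara* and *Pparg* limit what can be detected for them.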
